A study of Homo sapiens with 6 samples.

Results

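The 10 Frizzled receptors, FZD1 to FZD10, were examined in RNA-seq of endothelial-type cells derived from the human embryonic stem cell line H1. Members were chosen by symbol alone, as 10 of 56595 symbols in the deposited table, and each stood on 1 row. All 10 passed the filter of a mean of at least 0.5 FPKM (sequenced fragments per kilobase of transcript length, relative to all mapped fragments), which 15875 symbols passed. The 6 libraries were of CD31+ cells sorted at day 8 of hematopoietic differentiation. CD31, the product of PECAM1, marks endothelial cells and part of the blood lineage. There were 2 libraries of unedited H1 cells (WT, replicates 1 and 2) and 4 libraries labelled MSX2-/-, which came from the CRISPR/Cas9-edited lines 1# and 2# with replicates 1 and 2 of each. Each edited line was grown from a single cell and is therefore 1 clone, while WT H1 is the parental line. The edited lines were also infected with lentivirus and selected with puromycin, steps that the study's methods do not describe for WT. Loss of MSX2, these steps and cloning from a single cell cannot be told apart in any comparison with WT. The labels name CD31 sorting for the edited cells, and the methods of the study name it for WT as well. The labels' growth protocol speaks of HAND1 overexpression, which the study's text does not describe for these cells. MSX2 is a homeobox transcription factor that is active in early mesoderm.

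The mRNA of the targeted gene did not serve as a check of the labels. The study reports that DNA sequencing of the targeted MSX2 exon verified a frameshift in both clones. MSX2 mRNA was 3.64 and 1.44 FPKM in WT replicates 1 and 2, 18.0 and 5.62 FPKM in 1#, and 31.8 and 6.69 FPKM in 2#. It was thus higher in the libraries labelled MSX2-/- (log2 fold change 1.99, SE 0.69), with a limma adjusted p = 0.309, or 0.0107 with the replicate number as a block. Total expression summed to between 555229 and 617058 FPKM per library, and between 13357 and 14208 genes reached 1 FPKM. The deposited table gives no read totals, but relative to WT replicate 1 the depth estimated from genes under 0.1 FPKM lay between 1.02 and 1.18 in the other 5 libraries. The endothelial markers CDH5 and PECAM1 were at 230 FPKM or more and at 186 FPKM or more in every library.

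Frizzled proteins are membrane-spanning receptors that bind secreted WNT ligands through a cysteine-rich domain outside the cell. With the co-receptors LRP5 and LRP6 they recruit Dishevelled and stabilise β-catenin, and without them they feed the planar cell polarity branch, which acts on the cytoskeleton. By sequence the family falls into the groups FZD1, FZD2 and FZD7, then FZD5 and FZD8, then FZD4, FZD9 and FZD10, and finally FZD3 and FZD6. In endothelium FZD4 is best known as the receptor for Norrin, a ligand outside the WNT family, which signals together with TSPAN12 and LRP5. WNT signaling is also a known input to mesoderm formation and to the emergence of blood from endothelium.

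The sequences just before the start sites of FZD5, FZD8 and FZD4 are shown because these 3 of the 4 receptors called with the replicate block, as described further on, have an entry in the promoter table. Each run is the 250 bases before the RefSeq start (assembly GRCh38.p14), read 5′ to 3′ on the gene's own strand, which is the minus strand for all 3. FZD5 is at chr2:207769907-207770156, FZD8 at chr10:35642297-35642546 and FZD4 at chr11:86955396-86955645. Capitals mark a CCAAT box, which in each case reads ATTGG on the strand printed.
FZD5: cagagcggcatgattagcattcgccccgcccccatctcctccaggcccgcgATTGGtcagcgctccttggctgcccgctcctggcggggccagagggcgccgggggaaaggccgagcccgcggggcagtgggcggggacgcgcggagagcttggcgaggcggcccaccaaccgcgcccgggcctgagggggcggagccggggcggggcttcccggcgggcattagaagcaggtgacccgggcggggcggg
FZD8: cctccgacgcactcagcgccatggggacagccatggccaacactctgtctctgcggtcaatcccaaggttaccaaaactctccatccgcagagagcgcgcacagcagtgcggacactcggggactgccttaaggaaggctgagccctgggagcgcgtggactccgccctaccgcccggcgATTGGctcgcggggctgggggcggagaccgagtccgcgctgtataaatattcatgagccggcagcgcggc
FZD4: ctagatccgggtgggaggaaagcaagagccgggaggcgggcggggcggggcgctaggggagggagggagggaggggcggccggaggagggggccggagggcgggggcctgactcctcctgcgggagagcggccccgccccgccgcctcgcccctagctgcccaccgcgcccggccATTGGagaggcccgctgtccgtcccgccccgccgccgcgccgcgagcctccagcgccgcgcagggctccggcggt
The CCAAT box began 199 bases before the start of FZD5, 70 bases before that of FZD8 and 75 bases before that of FZD4. The GENCODE annotation starts FZD5 at 207769563, further downstream than RefSeq, so the distance given for FZD5 holds for the RefSeq start only. Of all 35116 promoter windows of this length, 32% held CCAAT on either strand. The window of FZD1, a receptor that was not called, also held it, 91 bases before the start, and that of FZD9 did not. The GC box GGGCGG, searched on both strands, occurred 6 times in the FZD5 window, 6 times in that of FZD4 and 3 times in that of FZD8. It was also found in the windows of FZD1 (1 match) and FZD9 (2 matches), and 42.6% of all windows held it. The homeobox core TAATTG, the TCF/LEF core CTTTGA and the GATA site AGATAA were likewise searched on both strands and had no match in these windows, nor in those of FZD1 and FZD9. They occurred in 6.7%, 11.2% and 9.17% of all windows. The motifs were picked by hand, FZD2, FZD3, FZD6, FZD7 and FZD10 had no entry in the promoter table, and a match or its absence describes only the letters of the window. The base composition was 76.8% G and C for FZD5, 80.8% for FZD4 and 65.2% for FZD8.

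Every Frizzled was detected in every library, and FPKM, being a level per kilobase, allows the receptors to be ranked. In WT the order of mean levels was FZD4 (17.1 ± 2.90 FPKM, SD, n = 2), FZD8 (16.1 ± 11.1), FZD10 (12.4 ± 12.5), FZD2 (8.87 ± 4.53), FZD6 (8.63 ± 0.042), FZD1 (7.55 ± 7.21), FZD7 (4.93 ± 2.23), FZD3 (2.80 ± 0.58), FZD9 (2.09 ± 0.91) and FZD5 (1.37 ± 0.13). The ranges of neighbours in this order overlapped except between FZD7 and FZD3. In the libraries labelled MSX2-/- the order was FZD2 (17.5 ± 8.75 FPKM, SD, n = 4), FZD4 (10.8 ± 2.75), FZD8 (10.3 ± 7.16), FZD6 (7.53 ± 0.483), FZD5 (6.86 ± 1.74), FZD7 (5.29 ± 2.62), FZD10 (5.06 ± 2.18), FZD1 (4.34 ± 3.79), FZD3 (2.36 ± 0.72) and FZD9 (2.27 ± 1.56). Here the ranges of all neighbours overlapped. Library by library, FZD5 ranked 10 and 9 of the 10 in WT, 7 and 3 in 1#, and 7 and 2 in 2#, while FZD2 ranked 4 and 5 in WT and 1 in all 4 edited libraries.

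**Figure D1:**
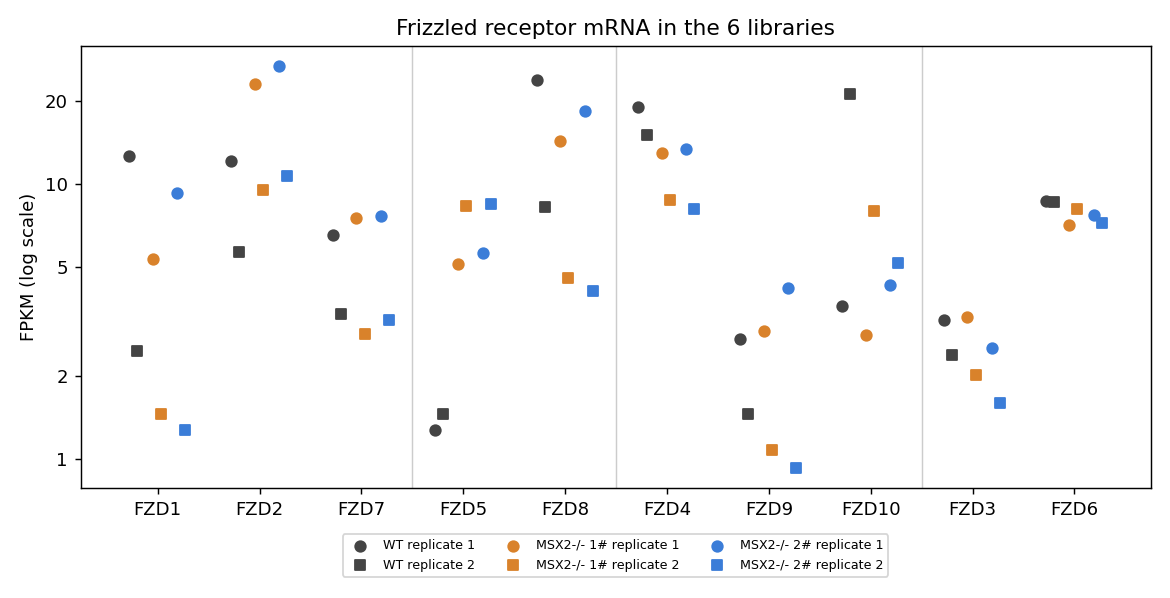
Level of each Frizzled in FPKM (log axis) in the 6 libraries, with receptors grouped by sequence group, color for the line and circles or squares for replicates 1 and 2. FZD5 stands apart as the receptor whose 4 edited libraries (5.11 to 8.43 FPKM) lie well above both WT libraries (1.28 and 1.46 FPKM), while FZD1, FZD2, FZD7, FZD8 and FZD9 are lower in each replicate 2 than in the replicate 1 of the same line.

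The main question of the design was how MSX2-/- cells differ from WT, and among the Frizzleds 1 of 10 passed the test. FZD5 was higher, with a limma adjusted p under 0.05 over all genes tested, against 0.964% of all genes called higher and 0.321% called lower. The other 9 did not pass. This fit treated the 4 edited libraries as independent, although they came from 2 clones. Of the 10 log2 fold changes, 3 were above 0 and 7 below, with a median of -0.19 beside 0.0081 over all genes. Replicate numbers were shared by WT, 1# and 2#, and libraries with the same number deviated together, so the same contrast was also fitted with the replicate number as a block. With it 4 members passed, FZD2 and FZD5 as higher and FZD4 and FZD8 as lower, where 6.15% of all genes were called higher and 3.77% lower.

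FZD5 and FZD8 form a pair of close relatives that bind several WNTs of the β-catenin branch. Their log2 fold changes had opposite signs with all 6 libraries. FZD5, on chromosome 2 from 207762586 to 207769563 on the minus strand (GRCh38, GENCODE annotation, 2 exons, no overlapping gene), was 1.28 and 1.46 FPKM in WT, 5.11 and 8.29 FPKM in 1#, and 5.61 and 8.43 FPKM in 2#. The groups did not overlap, and the mean was 5.02 times as high in the libraries labelled MSX2-/-. Across all genes, 12.1% had all 4 edited libraries above both WT libraries. The log2 fold change of FZD5 was 1.70 on log2(FPKM + 1), with an SE of 0.24, a 95% interval of 1.13 to 2.28 and a limma adjusted p = 0.0322. With the replicate block the SE was 0.14 and the adjusted p 0.00213. Without the block, the call was lost without the filter on low values (limma adjusted p = 0.0857) and in the fit of 3 groups (0.111). With the block and no filter it was kept (0.0238). An exact permutation test of the 4 against 2 libraries, two-sided, gave p = 0.0667, the smallest that the 15 possible splits allow. Leaving out any 1 library kept the log2 fold change between 1.61 and 1.82, but the limma adjusted p then rose to between 0.0661 and 0.211. With the block it stayed between 0.00939 and 0.0166 whichever library was left out.

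Set against WT of the matching replicate, FZD5 was 4.01 and 5.68 times as high in 1# and 4.39 and 5.78 times as high in 2#. Both lines thus showed the larger ratio in replicate 2. The difference of the effect between replicate numbers was 0.45 on the log2 scale (SE 0.20), with a limma adjusted p = 0.484.

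FZD8, an intronless gene on chromosome 10 from 35638249 to 35642278 on the minus strand, varied more between replicates than between lines. It was 23.9 and 8.22 FPKM in WT, 14.3 and 4.53 FPKM in 1#, and 18.4 and 4.07 FPKM in 2#. The groups overlapped, yet each edited library was below the WT library of its own replicate number, at 0.599 and 0.551 of it in 1# and 0.768 and 0.495 in 2#. Across all genes, 21.4% were lower in this paired way in all 4 libraries and 23.6% were higher. The log2 fold change was -0.67 (SE 0.68, limma adjusted p = 0.831), and with the block the SE was 0.13 and the adjusted p 0.0322. With the block the call was kept without 2# replicate 1 and lost without any other library, with adjusted p up to 0.180, and it was lost without the filter on low values (0.109). Without the block, leaving out WT replicate 1 turned the log2 fold change to 0.051 and leaving out WT replicate 2 moved it to -1.38. In that fit its sign thus rested on the WT library used. With the block the log2 fold change stayed between -0.80 and -0.53 whichever library was left out. The gene holds MIR4683 on its own strand, whose reads cannot be told apart from those of FZD8 in a total RNA library.

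FZD2, together with FZD1 and FZD7, belongs to the group that takes up both β-catenin and polarity signals. It is an intronless gene on chromosome 17 from 44557459 to 44559570 on the plus strand, and had the highest mean of all Frizzleds over the 6 libraries, at 14.6 FPKM. FZD2 was 12.1 and 5.67 FPKM in WT, 23.1 and 9.51 FPKM in 1#, and 26.9 and 10.7 FPKM in 2#. WT replicate 1 lay above both edited replicate 2 libraries, so the groups overlapped, while within a replicate number the edited libraries were 1.91 and 1.68 times (1#) and 2.22 and 1.88 times (2#) as high as WT. The log2 fold change was 0.86 (SE 0.49, limma adjusted p = 0.600), and with the block the SE was 0.11, the 95% interval 0.58 to 1.14 and the adjusted p 0.00882. This call was lost without WT replicate 1, where the adjusted p was 0.0715 and the log2 fold change 0.73, and without the filter on low values, where the adjusted p was 0.0504. Without the block, leaving out WT replicate 1 moved the log2 fold change to 1.35 and leaving out WT replicate 2 moved it to 0.37.

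FZD1 and FZD7, the close relatives of FZD2, passed neither test. FZD1 was 12.6 and 2.46 FPKM in WT, 5.33 and 1.46 FPKM in 1#, and 9.29 and 1.28 FPKM in 2#. Each edited library was below its WT partner, at 0.422 and 0.593 of it in 1# and 0.735 and 0.519 in 2#, but the log2 fold change of -0.65 did not pass (SE 0.79, limma adjusted p = 0.870, and with the block SE 0.21, adjusted p 0.109, 95% interval -1.16 to -0.15 before adjustment). Without WT replicate 1 and without the block it was 0.34, so in that fit its sign rested on that library. With the block it stayed between -0.79 and -0.49 whichever library was left out. FZD7, a receptor much studied in pluripotent cells, was 6.50 and 3.35 FPKM in WT, 7.49 and 2.85 FPKM in 1#, and 7.63 and 3.21 FPKM in 2#. Its replicate pairs lay on both sides of WT, and the block interval of its log2 fold change of 0.04 ran from -0.26 to 0.34, with an adjusted p of 0.875. Reads shared within this group were few, since 2.67% of the 50-base stretches of FZD2, 0.463% of those of FZD1 and 0.525% of those of FZD7 occurred in another Frizzled.

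FZD4, the Norrin receptor, was lower in all 4 libraries labelled MSX2-/- than in both WT libraries. It lies on chromosome 11 from 86945679 to 86955391 on the minus strand and has 2 exons. FZD4 was 19.1 and 15.04 FPKM in WT, 13.0 and 8.77 FPKM in 1#, and 13.4 and 8.12 FPKM in 2#. The groups did not overlap, as for 9.19% of all genes in this direction, and the paired ratios were 0.680 and 0.583 in 1# and 0.698 and 0.540 in 2#. The log2 fold change was -0.64 (SE 0.25, limma adjusted p = 0.373), and with the block the SE was 0.10, the 95% interval -0.88 to -0.39 and the adjusted p 0.0150. With the block the call was lost without WT replicate 2 or without 1# replicate 1, with an adjusted p of at most 0.0836, and without the filter on low values (0.0521). The exact permutation test, two-sided, gave p = 0.133.

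PRSS23, a serine protease gene, overlaps FZD4 on the opposite strand, and strand use in the counting is not given in the sources used here. It was 66.8 and 54.6 FPKM in WT and between 63.9 and 99.1 FPKM in the edited libraries. Its log2 fold change was 0.30 (limma adjusted p = 0.669, and 0.191 with the block), opposite in sign to that of FZD4.

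FZD10 and FZD9, the relatives of FZD4, passed neither test. FZD10 was 3.60 and 21.3 FPKM in WT, 2.82 and 8.00 FPKM in 1#, and 4.27 and 5.16 FPKM in 2#. WT replicate 2 stood far above the other libraries. The log2 fold change was -0.81 (SE 0.63, limma adjusted p = 0.742, 0.226 with the block). Without WT replicate 2 it became 0.33 in the fit without the block and -0.036 in the fit with it. Among the Frizzleds this receptor also had the largest difference of the effect between replicate numbers, -1.55 on the log2 scale (SE 0.45, limma adjusted p = 0.388). FZD10-AS1, a noncoding gene that starts next to FZD10 and runs the other way, was 4.17 and 4.46 FPKM in WT, 2.87 and 1.17 FPKM in 1#, and 3.94 and 1.13 FPKM in 2# (log2 fold change -0.79, limma adjusted p = 0.510, 0.120 with the block). In replicate 2 both genes were thus higher in WT than in 1# and 2#, while FZD10-AS1 differed little between the WT replicates. FZD9 was 2.74 and 1.45 FPKM in WT, 2.92 and 1.07 FPKM in 1#, and 4.18 and 0.924 FPKM in 2#, with a log2 fold change of -0.01 and a block interval of -0.49 to 0.46.

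FZD6 and FZD3, the receptors tied most closely to planar cell polarity, had small differences. FZD6 was 8.66 and 8.60 FPKM in WT, 7.06 and 8.13 FPKM in 1#, and 7.70 and 7.21 FPKM in 2#. The groups did not overlap, but the difference was slight, with a log2 fold change of -0.18 (SE 0.14, limma adjusted p = 0.745, 0.328 with the block) and a block interval of -0.43 to 0.07. FZD3 was 3.21 and 2.39 FPKM in WT, 3.28 and 2.02 FPKM in 1#, and 2.54 and 1.60 FPKM in 2#. Its log2 fold change was -0.19 (SE 0.25, limma adjusted p = 0.877, 0.463 with the block).

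**Figure D2:**
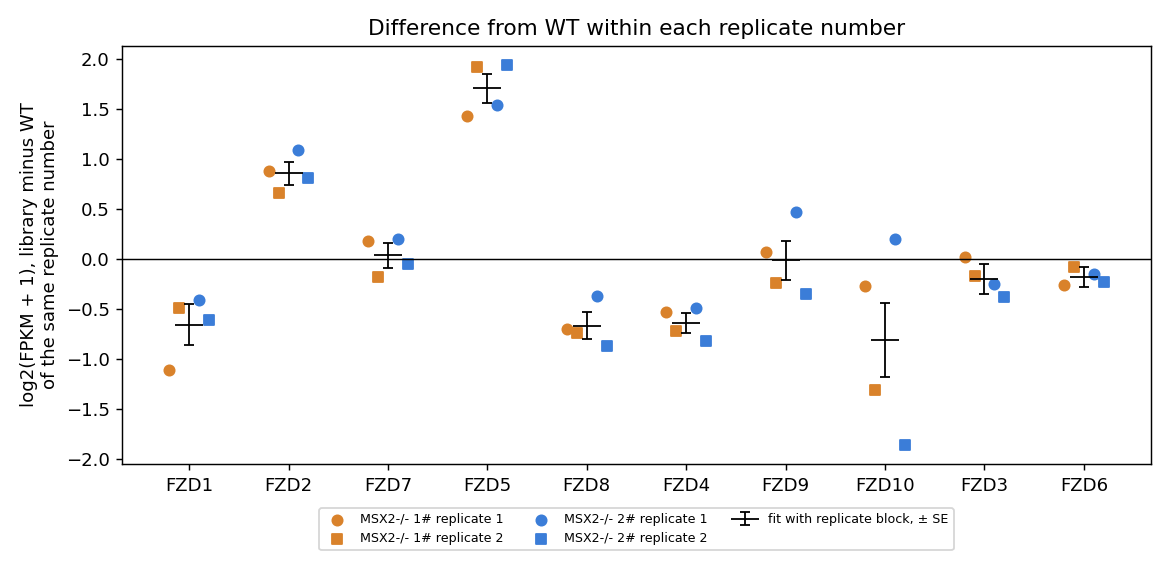
Difference in log2(FPKM + 1) between each library labelled MSX2-/- and its WT partner, that is WT with the same number, with color for the line, circles or squares for replicates 1 and 2, and the horizontal black mark with its bar for the fit with replicate block ± SE. All 4 points are above 0 for FZD2 and FZD5 and below 0 for FZD1, FZD4, FZD6 and FZD8, while the 4 points of FZD10 spread the most.

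Each edited line was also compared with WT and with the other line. In a fit of 3 groups without the block 0 of 10 members passed in 1# and 0 in 2#, where 0.0063% of all genes passed in each. At an unadjusted p under 0.05 stood 1 member in either line, beside 1172 of 15875 genes in 1# and 1181 in 2#. With the block FZD2 and FZD5 passed in each line, beside 3.46% of all genes in 1# and 3.75% in 2#. FZD5 was 1.67 higher in 1# (limma adjusted p = 0.0169) and 1.74 higher in 2# (0.0148) on the log2 scale. FZD2 was 0.77 higher in 1# (limma adjusted p = 0.0454) and 0.95 higher in 2# (0.0277). Between the lines 0 of 10 Frizzleds and 0% of all genes passed the limma threshold with or without the block. At an unadjusted p under 0.05 stood 0 Frizzleds, beside 227 of 15875 genes without the block and 530 with it. For FZD5 the difference of 2# from 1# was 0.07, with an interval of -0.70 to 0.84, or -0.39 to 0.53 with the block. These intervals leave room for a sizeable difference between the clones. Both lines were compared with the same WT libraries, so their differences from WT are not independent of each other.

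Most Frizzleds also differed between the replicate numbers. The labels give replicate 1 and replicate 2 a set letter each, F and S, and do not say what the sets are. With the line as a covariate, 6 of 10 Frizzleds were lower in replicate 2 and 0 were higher, beside 15.5% of all genes called lower and 12.5% called higher. These were FZD1 (log2 difference -1.84, SE 0.19, limma adjusted p = 0.00501), FZD8 (-1.61, SE 0.14, 0.00410), FZD2 (-1.14, SE 0.11, 0.00452), FZD7 (-0.99, SE 0.13, 0.00792), FZD9 (-0.99, SE 0.20, 0.0206) and FZD4 (-0.50, SE 0.11, 0.0258). All 3 members of the FZD1, FZD2 and FZD7 group were among them. FZD10 (1.25, SE 0.37, limma adjusted p = 0.0574) and FZD5 (0.41, adjusted p 0.0943) lay on the other side without passing, and FZD6 differed by 0.03 (adjusted p 0.870). Without the filter on low values 0 members passed, and FZD1, FZD2 and FZD8 were the 3 that passed without 1# replicate 1 and likewise without 1# replicate 2. Without either 2# library FZD4 and FZD9 did not pass, and FZD10 passed as higher (1.76, limma adjusted p = 0.0348 without 2# replicate 1 and 0.0387 without 2# replicate 2). The effect of the MSX2 label differed between replicate numbers in 0 of 10 Frizzleds by limma, beside 0.0189% of all genes that passed. At an unadjusted p under 0.05 stood 1 Frizzled, beside 1816 of 15875 genes.

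**Figure D3:**
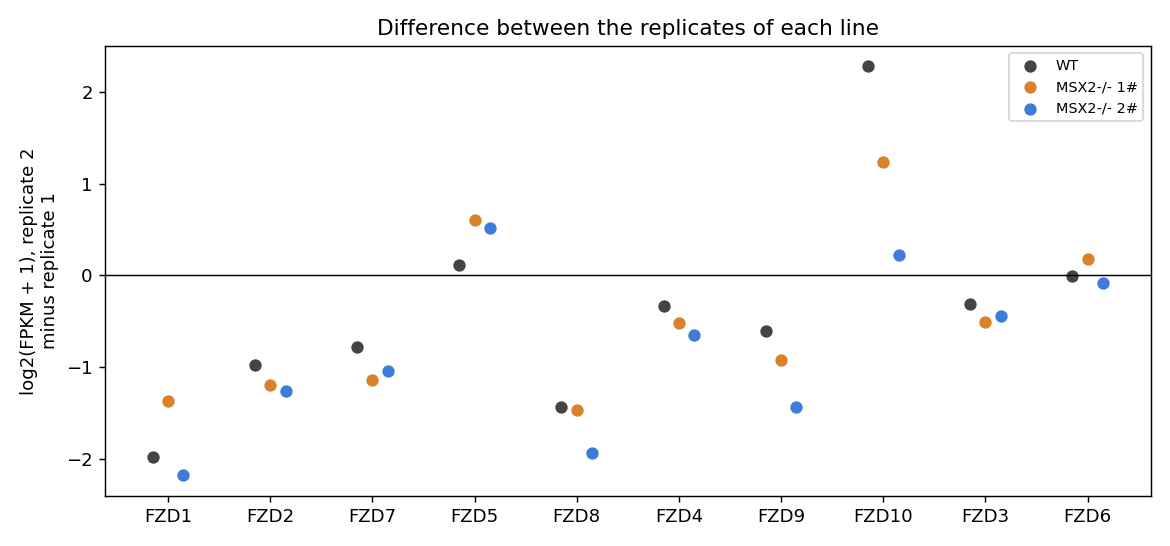
Difference in log2(FPKM + 1) between replicate 2 and replicate 1 within WT, 1# and 2#, for each Frizzled. The points of all 3 lines lie below 0 for FZD1, FZD2, FZD3, FZD4, FZD7, FZD8 and FZD9 and above 0 for FZD5 and FZD10. Replicate differences also correlated between lines over all genes (r from 0.509 to 0.638). The share of all genes with the same sign in all 3 lines was not counted.

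Summed over the family, Frizzled mRNA was 93.8 and 69.9 FPKM in WT, 84.5 and 54.6 FPKM in 1#, and 99.8 and 50.6 FPKM in 2#. The sums overlapped between the groups and were lower in replicate 2 of every line. The make-up of the sum is given here as a description, with no test. FZD5 was 1.36% and 2.09% of the sum in WT, 6.05% and 15.2% in 1#, and 5.62% and 16.6% in 2#. FZD2 was 12.9% and 8.10% of it in WT, 27.4% and 17.4% in 1#, and 26.9% and 21.04% in 2#, and was the leading Frizzled in all 4 edited libraries. The leading receptor of WT was FZD8 in replicate 1, at 25.5%, and FZD10 in replicate 2, at 30.5%. FZD4 held 20.4% and 21.5% of the sum in WT and between 13.4% and 16.1% in the edited libraries. As these are shares, a rise of 1 receptor lowers those of the others.

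**Figure D4:**
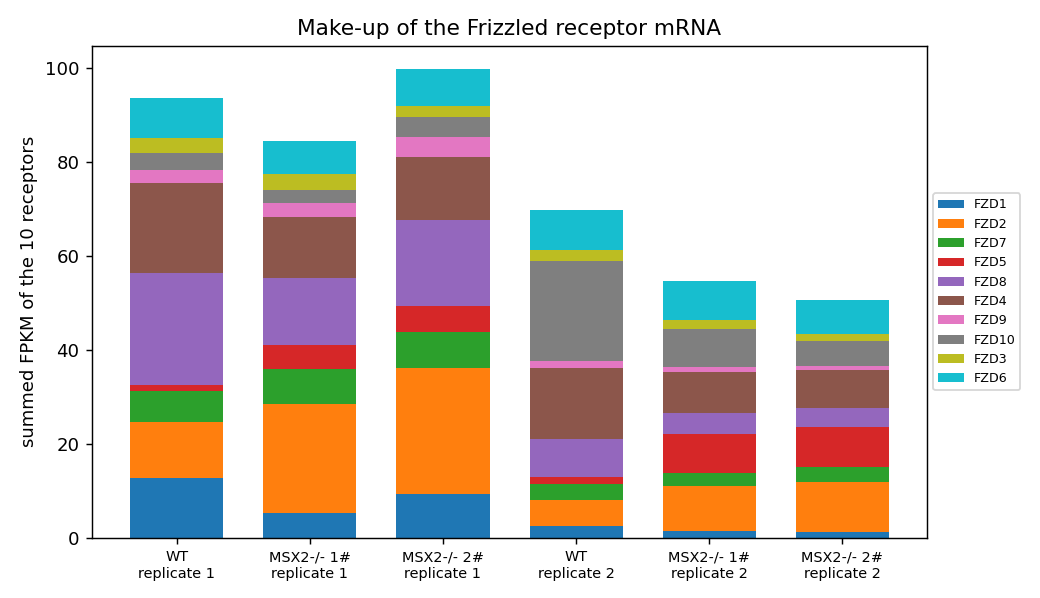
Stacked FPKM of the 10 Frizzleds in each library, with replicate 1 of the 3 lines on the left and replicate 2 on the right. The FZD5 and FZD2 segments are thicker in the edited libraries than in their WT partner, and the totals run from 50.6 to 99.8 FPKM.

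The genes whose levels over the 6 libraries were most like those of FZD5, by Pearson's r of log2(FPKM + 1), were TMEM120B (r = 0.998), NOSTRIN (0.997) and TMEM14C (0.997). This r does not depend on the size of a change, and TMEM120B ran only from 5.45 to 6.39 FPKM. NOSTRIN, which binds the endothelial nitric oxide synthase, was 6.99 and 7.24 FPKM in WT and between 15.7 and 20.4 FPKM in the edited libraries. For FZD2 they were ADA2 (0.999), TRIP10 (0.998) and LINC00649 (0.997). Among 12117 genes compared, 207 (1.71%) exceeded r = 0.95 with FZD5 and 242 (2.00%) with FZD2, a cut below the values named. The named genes were picked as the highest of these, over 6 libraries that share replicate numbers, so their r is a description only. Within the family the highest r was 0.987, between FZD1 and FZD8, and the lowest was -0.90, between FZD4 and FZD5.

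Of the ligands of the Frizzleds, 7 of the 20 listed genes (the WNTs and NDP) passed the filter on low values. Without the block 0 of the 7 passed the limma test (2 at an unadjusted p under 0.05), and with it 2 were higher and 0 lower, WNT11 and WNT9B. WNT11, a ligand best known for polarity signals, was 5.55 and 8.87 FPKM in WT, 17.2 and 21.95 FPKM in 1#, and 16.7 and 26.4 FPKM in 2# (log2 fold change 1.40, limma adjusted p = 0.0637, 0.00162 with the block). All 4 edited libraries thus lay above WT, as for FZD5. NDP, which encodes Norrin, was at most 0.0847 FPKM in any library and was not tested, while its receptor partner TSPAN12 was between 7.69 and 11.5 FPKM. The median log2 fold change of the 7 ligands was 0.62. Beside these counts and those of the lists that follow stand the shares of all genes, 0.964% called higher and 0.321% lower without the block and 6.15% and 3.77% with it, and 1874 of 15875 genes at an unadjusted p under 0.05 without it.

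All 9 co-receptors and membrane partners passed the filter, 0 passed the limma test without the block (1 at an unadjusted p under 0.05), and with it LRP5 was higher and ROR1 lower. LRP5, which pairs with Frizzleds in the β-catenin branch, was 6.75 and 2.34 FPKM in WT, 11.0 and 5.49 FPKM in 1#, and 16.7 and 4.36 FPKM in 2# (log2 fold change 0.87, limma adjusted p = 0.664, 0.0358 with the block). ROR1, a WNT5A receptor, fell by 0.52 on the log2 scale (limma adjusted p = 0.557, 0.0449 with the block). The median of this list was -0.07. Of the 9 genes that control Frizzled turnover, 6 were tested, with 0 called without the block (2 at an unadjusted p under 0.05) and LGR4, an R-spondin receptor that spares Frizzleds from removal, higher with it (log2 fold change 0.75, limma adjusted p = 0.185, 0.0431 with the block). Among the other proteins with a Frizzled-type cysteine-rich domain, of which 6 of 10 were tested, 0 passed without the block (3 at an unadjusted p under 0.05). With it SFRP5 was higher (1.25, limma adjusted p = 0.260, 0.0310 with the block) and FRZB lower (-1.31, 0.566, 0.00915 with the block), and both encode secreted proteins that bind WNTs.

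Inside the cell, 0 of 15 genes of Dishevelled and the β-catenin branch passed without the block, also at an unadjusted p, and with it DVL1 was higher (log2 fold change 0.27, limma adjusted p = 0.0434) and TCF7L1 lower (-0.44, 0.0376), for a median of -0.0062 over the list. Of 11 tested genes of the planar cell polarity branch, 0 passed without the block (1 at an unadjusted p under 0.05), and VANGL2, a core polarity protein, was higher with it (0.50, limma adjusted p = 0.0335). Among 13 tested target genes of β-catenin, 1 was higher and 0 lower without the block. This was NOTUM, an enzyme that inactivates WNTs, at 0.633 and 1.14 FPKM in WT and between 3.61 and 4.502 FPKM in the edited libraries (log2 fold change 1.44, limma adjusted p = 0.0273). With the block, where 6.15% of all genes were called higher and 3.77% lower, 6 of the 13 were higher and 0 lower, NOTUM, MYC, BMP4, TNFRSF19, CCND1 and NKD2. AXIN2, the target most often read as a measure of β-catenin signaling and named here after its values were seen, was 4.99 and 4.97 FPKM in WT and between 2.36 and 4.46 FPKM in the edited libraries (log2 fold change -0.51, limma adjusted p = 0.491, 0.113 with the block). The median of the targets was 0.65.

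**Figure D5:**
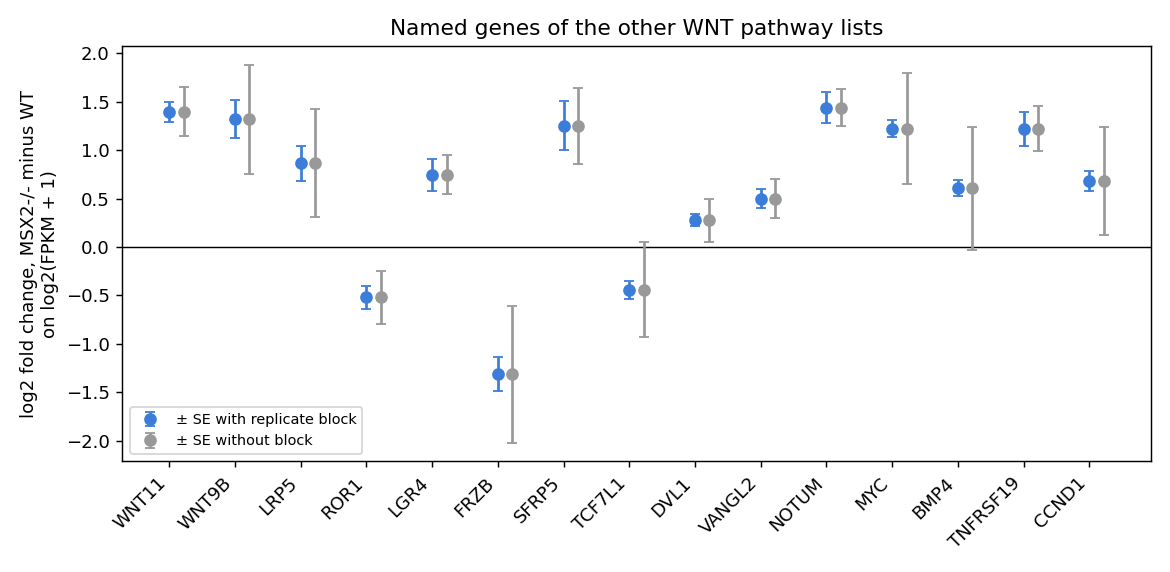
Log2 fold change, on log2(FPKM + 1), of MSX2-/- against WT for the 15 pathway genes named by rule, with the SE of the fit with the replicate block (blue) and without it (gray). Of these, 12 lie above 0 and ROR1, FRZB and TCF7L1 lie below it. The genes were named for passing limma in this contrast, so their distance from 0 follows from the choice. With the block, 6.15% of all genes were called higher and 3.77% lower.

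Markers of several cell types differed in the same contrast. Summed over 10 endothelial markers, the level was 2549 to 2668 FPKM in WT and 1608 to 1970 FPKM in the libraries labelled MSX2-/-, with ratios to the WT partner of 0.641 and 0.723 in 1# and 0.631 and 0.738 in 2#. Of these markers 3 were lower without the block, CDH5, TIE1 and CLDN5, and 7 with it. ROBO4 went the other way, with a log2 fold change of 0.29 (limma adjusted p = 0.484, 0.0811 with the block). PECAM1, whose product was the sorting marker, and EMCN passed neither fit, with log2 fold changes of -0.19 and -0.45. For this and the other marker lists the shares of all genes were 0.321% lower and 0.964% higher without the block, and 3.77% and 6.15% with it. FZD4 had paired ratios between 0.540 and 0.698. The 9 hematopoietic markers summed to 117 to 153 FPKM in WT and 239.7 to 374 FPKM in the edited libraries, with 1 higher without the block, GATA1, and 5 with it, and PTPRC under 0.5 FPKM. The 10 mesenchymal markers summed to 240 to 299 and 456 to 526 FPKM, with 2 higher without the block, COL1A1 and TAGLN, and 3 with it, and with DCN and POSTN under 0.5 FPKM. Other collagens of this list did not share that direction, with a log2 fold change of -0.07 for COL1A2 and -0.54 for COL3A1 (limma adjusted p = 0.923 and 0.708). Endoderm and liver markers (6) summed to 205 to 311 and 330.02 to 546 FPKM. In every library the largest part of this sum was SOX17, which endothelial cells also express. SOX17 was 165 and 241 FPKM in WT and between 201 and 353 FPKM in the edited libraries. APOA1 (1.48), TTR (1.08) and FOXA2 (1.02) had log2 fold changes above 0, and AFP (-0.32) and ALB (-0.49) below 0. ALB was 20.7 and 44.8 FPKM in WT, 122 and 125 FPKM in 1#, and 15.3 and 0 FPKM in 2#. Cardiac markers (6) summed to 32.2 to 42.5 and 56.1 to 90.1 FPKM with MYH6 under 0.5 FPKM. Most of this sum was NKX2-5, at 30.9 and 41.4 FPKM in WT and between 49.6 and 84.3 FPKM in the edited libraries. Pluripotency markers (8) summed to 65.1 to 74.9 and 85.2 to 102 FPKM with NANOG and SOX2 under 0.5 FPKM. Most of that sum was LIN28A and DPPA4, while POU5F1 had a log2 fold change of 0.08 (limma adjusted p = 0.986). Of the endoderm and liver, cardiac and pluripotency lists 0 genes passed limma without the block (0, 4 and 0 at an unadjusted p under 0.05), and 1, 2 and 1 were higher with it. The part of these markers in the Frizzled values was not tested, and in bulk RNA fewer cells of a type and less RNA per cell cannot be told apart.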

How the data were processed

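Total RNA of sorted cells was sequenced, and FPKM values were deposited by the authors in 1 table with 1 column per library and no counts. The submitters' processing notes name BWA, Bowtie, RSEM and hg19, the series text names TopHat and Cufflinks, and versions, annotation and strand use are not given in the sources used here. Columns were matched to lines by name; the clone numbers of the labels were not matched to 1# and 2#. Of 58364 rows with values (1 without), the row with the highest mean was kept for each of 342 repeated symbols. From these values limma 3.58.1 (R 4.3.3, moderated with trend, two-sided) was fitted to log2(FPKM + 1) for the 15875 genes averaging 0.5 FPKM or more, with Benjamini-Hochberg adjustment over all of them and a threshold of 0.05. A fold change on this scale understates that of low genes. The labels do not say whether replicates were separate cultures, so p-values measure only the spread between these libraries. Replicate differences correlated across genes between lines (r = 0.509 for WT and 1#, 0.540 for WT and 2#, 0.638 for 1# and 2#), so the numbers pair the libraries, as the set letters of the labels do. The fits were tested on simulated data. Members and lists were chosen with earlier results of these data known, and withheld marker genes are not reported here. Named were all members, MSX2, pathway genes called without the block plus up to 4 per list called with it, and the 3 genes most like the member with the smallest adjusted p and the one with the highest mean. Promoters are from RefSeq (GRCh38.p14, 5 of 10 members found), gene positions from GENCODE 29 on GRCh38; the deposited table holds no coordinates. Alternatives were the block, a pseudocount of 0.1, no filter, rescaled libraries, 3 groups, each clone alone, no trend and each library left out.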

Additional observations from a re-analysis of the deposited data

How the results depend on the processing

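The number of Frizzleds called between MSX2-/- and WT was 1 of 10 and that of all genes 204. With the replicate block these were 4 and 1575, without the filter 0 and 127, with 3 groups 0 and 6, with clone 1# alone 0 and 0, and with clone 2# alone 0 and 1. Leaving out each library gave 0 Frizzleds each time and 19 to 82 genes. With a pseudocount of 0.1, rescaled libraries or no trend the count of Frizzleds stayed at 1. The cause of these changes was not tested, beyond the smaller number of libraries where some were left out. Alternatives chosen after seeing the data combined the block with others. With the block and no filter 510 genes and FZD5 alone of the Frizzleds were called, with the block and rescaling 1618 and 4, with the block and a pseudocount of 0.1 1706 and 4, and with the block and each library left out 706 to 1001 genes (786 without WT replicate 2, 761 and 894 without 1# replicates 1 and 2, 739 without 2# replicate 2) and 2 to 4 Frizzleds. With the block the clones 1# and 2# had 2 Frizzleds each in place of 0, and the block changed no other Frizzled call. Between replicates 6 were called, 0 without the filter, 4 without the pairing, and 3 to 6 with each library left out.

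Signs were not stable for some members with small or uneven differences. FZD9 was 0.061 with clone 2# alone. Without the block and with each library left out, the log2 fold change ran from -1.64 to 0.34 for FZD1 and from -1.38 to 0.051 for FZD8. It ran from -0.32 to 0.29 for FZD9, from -0.35 to 0.43 for FZD7 and from -1.95 to 0.33 for FZD10. With the block and each library left out, it stayed below 0 for FZD1 (-0.79 to -0.49), FZD8 (-0.80 to -0.53) and FZD10 (-1.58 to -0.036). With the block FZD7 was -0.11 without WT replicate 1, and FZD9 was 0.27 without WT replicate 2, 0.034 without 1# replicate 1, 0.0056 without 1# replicate 2 and 0.052 without 2# replicate 2. The replicate difference of FZD6 ran from -0.046 without either 1# library to 0.085 without either 2# library. Between MSX2-/- and WT, FZD5 and FZD2 kept a positive sign and FZD4 and FZD6 a negative sign in every fit run. FZD3 also stayed below 0 in this contrast of both lines with WT. With each library left out it ran from -0.35 to -0.039 without the block and from -0.28 to -0.11 with it. The number of reads behind each value is not in the table, so no interval for counting error is given.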
